A study of Mus musculus with 6 samples.

Results

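The hypoxia-inducible factor (HIF) pathway was examined through 5 transcripts in mouse soleus, a calf muscle rich in slow fibres. They were Hif1a, Arnt, Vhl, Cited2 and Hmox1, taken as the probes that the platform annotation names so, with 1 probe for each gene, and they make up 5 of the 203 genes named on the array. The genes lie on mouse chromosomes 12, 3, 6, 10 and 8, in that order. All 6 arrays came from C57Bl/6 mice that were hindlimb suspended, a procedure that takes the body weight off the hindlimbs. Each array received 3 microgram of total RNA from cryosections of the muscle. The labels give no age or sex, they do not spell out the tags HUR, wt and HS7 that the array names carry, so that no length of suspension is stated in words, and animals under normal load were not analysed here. The measurements are therefore levels in suspended muscle and their variation between arrays. Nothing in the labels ties each array to a separate animal, so the spread and every p-value below describe these arrays and may be partly technical.

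HIF is a pair of proteins. Hif1a encodes the oxygen-regulated alpha subunit, and Arnt encodes the beta subunit that joins it on DNA and also partners other transcription factors. When oxygen is ample, prolines of the alpha subunit are hydroxylated and the Vhl protein, part of a ubiquitin ligase, marks it for breakdown, so that control of the alpha subunit lies largely at the protein and much less at the transcript. Cited2 is induced by HIF and competes with it for the coactivators p300 and CBP, a feedback inhibitor. Hmox1 encodes the inducible haem oxygenase, a target of HIF in rodents and of the oxidative stress factor Nrf2.

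The HIF dimer recognises short DNA cores, ACGTG or GCGTG, and the promoters of the genes with transcripts above 0 are shown because HIF subunits, inhibitor and target are compared below. RefSeq (GRCm38.p6) promoter windows matched 4 of the 5 genes, all but Hmox1. The 250 bases before the annotated start are printed for Hif1a (chr12:73907617-73907866), Arnt (chr3:95434140-95434389) and Cited2 (chr10:17722978-17723227), each on the plus strand, with the matches of ACGTG and GCGTG on either strand (the latter read as CACGT and CACGC) in capitals.
Hif1a: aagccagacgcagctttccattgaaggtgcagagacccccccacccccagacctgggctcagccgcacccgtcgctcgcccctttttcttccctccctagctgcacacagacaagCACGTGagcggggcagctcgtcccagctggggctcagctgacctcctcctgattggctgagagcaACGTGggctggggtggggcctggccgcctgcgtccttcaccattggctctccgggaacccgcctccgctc
Arnt: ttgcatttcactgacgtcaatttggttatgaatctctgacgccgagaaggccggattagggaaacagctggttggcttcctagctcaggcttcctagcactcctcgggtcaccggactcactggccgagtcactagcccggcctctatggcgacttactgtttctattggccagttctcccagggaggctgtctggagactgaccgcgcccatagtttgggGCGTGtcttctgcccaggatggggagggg
Cited2: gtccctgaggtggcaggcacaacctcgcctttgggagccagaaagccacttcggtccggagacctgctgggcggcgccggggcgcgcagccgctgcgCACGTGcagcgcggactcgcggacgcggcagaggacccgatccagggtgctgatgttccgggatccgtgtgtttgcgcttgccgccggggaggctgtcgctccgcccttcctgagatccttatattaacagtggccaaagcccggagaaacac

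The Hif1a window held matches at 2 places and the Arnt and Cited2 windows at 1 each. In Hif1a and Cited2 the letters CACGTG stood at -135 and -153 from the start, where ACGTG overlaps its own reverse complement, so the same 6 bases match on both strands. That string is also the E-box bound by other factors of the same structural class. The second Hif1a match, ACGTG, began at -70, and the Arnt match, GCGTG, at -29. The Vhl window held none. Of 32851 mouse promoter windows of this length, 38.6% held at least 1 of the 4 strings and 6.02% held CACGTG, so a match is common and describes the letters only.

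The deposited values are linear, background-subtracted intensities, and a value at or below 0 was taken as not detected. Of the 5 transcripts, 4 (Hif1a, Arnt, Cited2 and Hmox1) were above 0 on all 6 arrays, where 76.7% of the 223 probes were. The same 4 exceeded, on every array, the absolute value of the lowest reading there, a simple yardstick of background noise that 60.1% of the probes passed. Vhl was above 0 on none. Levels are log2 intensities minus the array's median over the 171 probes above 0 on all arrays, so 0 marks that median and a step of 1 is a doubling. Because signal depends on the probe, levels were compared between arrays and not between genes.

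Replicate 1 stood apart before any gene was considered. Its intensities summed to 37.5, and those of the other 5 arrays to between 15.3 and 18.5. Its median over the 171 probes was 0.0115, against 0.0065 to 0.0098 on the others. Its median correlation with the other arrays was 0.879, where the other arrays had 0.957 to 0.975. The SD between arrays had a median over the 171 probes of 0.48 with it and 0.34 without it. The levels, spreads and pair correlations of the measured transcripts are therefore given with and without replicate 1. The muscle markers probed, Myh7 and Mb for slow fibres and Myh1, Myh2 and Myh4 for fast fibres, were above 0 on every array.

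**Figure D1:**
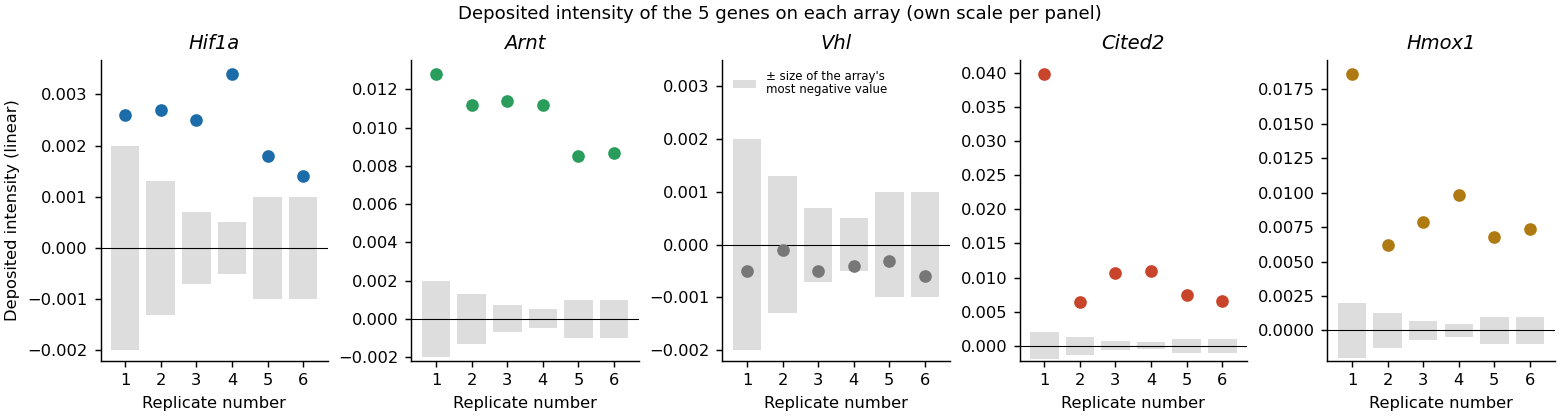
Deposited intensity (linear, vertical axis, own scale per panel) of the 5 genes on replicates 1 to 6 (horizontal axis); grey bars span the noise yardstick, the absolute value of the lowest reading, on either side of 0. Vhl lies below 0 on all 6 arrays and no value leaves the grey bar, Hif1a lies above the bar by a factor of 1.30 to 6.80, and Cited2 and Hmox1 are highest on replicate 1.

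Hif1a, the oxygen-regulated subunit, was measured weakly. Its deposited intensity was lowest at 0.0014 (replicate 6), had a median of 0.00255 and was highest at 0.0034 (replicate 4), with 0.0026 on replicate 1. These values were between 1.30 (replicate 1) and 6.80 times (replicate 4) the noise yardstick, the lowest margin among the 4 transcripts. The table gives 4 decimals, which alone allows an error of up to 0.05 on the log2 scale for Hif1a and 0.01 for the others. Its level was -1.88 ± 0.34 (SD, n = 6), ranging from -2.22 to -1.47, and -1.83 ± 0.35 without replicate 1 (n = 5). Replicates 2, 3 and 4 were the higher ones and 1, 5 and 6 the lower ones, a spread of 1.67-fold from lowest to highest. By SD, 56 of the 171 probes (32.7%) varied less than Hif1a, and 91 (53.2%) without replicate 1. Its spread was near the middle of the array's probes only without replicate 1, and lower with it.

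Arnt, the constitutively expressed partner, was among the steadier probes. Its deposited intensity ran from 0.0085 (replicate 5) through a median of 0.0112 to 0.0128 (replicate 1). Its level was 0.31 ± 0.20 (SD, n = 6) and 0.34 ± 0.21 without replicate 1 (n = 5), with extremes of 0.05 and 0.58. The lowest and highest arrays, replicates 5 and 2, differed by 1.44-fold. Only 13 of the 171 probes had a smaller SD with all arrays, and 41 without replicate 1. Under the other scalings the SD of Arnt lay between 0.20 and 0.33.

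Vhl, the recognition subunit of the ligase that marks the alpha subunit, gave no signal above background. Its deposited values ran from -0.0006 (replicate 6) through a median of -0.00045 to -0.0001 (replicate 2). On every array it lay within the noise yardstick, at -0.08 to -0.80 of it. Of the 223 probes, 8 (3.59%) were above 0 on no array. No level, fold or correlation can be given for Vhl, and the data set no lower limit on its transcript, only that it was not detectable with this probe at these intensities.

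Cited2, the feedback inhibitor, had the largest SD of the 4 with all arrays, and Hif1a had it without replicate 1. Its deposited intensity was 0.0064 at the lowest (replicate 2), 0.009 at the median and 0.0398 on replicate 1. The next highest array, replicate 4, had 0.0109, so replicate 1 was 3.65 times as high as the next array and 4.76 times the mean of the others. Its level was 0.32 ± 0.75 (SD, n = 6), between -0.23 and 1.79. Without replicate 1 the level was 0.02 ± 0.23 (n = 5), between -0.23 and 0.34. With all arrays 129 of the 171 probes had a smaller SD, and without replicate 1 only 44 did, so the large spread of Cited2 came from that array.

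Hmox1, the haem-degrading target, was likewise highest on replicate 1, with a smaller spread. Its deposited intensity was 0.0062 at the lowest (replicate 2), 0.00765 at the median and 0.0186 on replicate 1, and the next highest array, replicate 4, had 0.0098. Its level was 0.04 ± 0.36 (SD, n = 6), and without replicate 1 it was -0.09 ± 0.19 (n = 5). With replicate 1 the highest and lowest arrays differed by 1.96-fold, and by 1.38-fold among the other 5. Fewer probes had a smaller SD than Hmox1 without replicate 1, 31 of 171, than with it, 59.

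**Figure D2:**
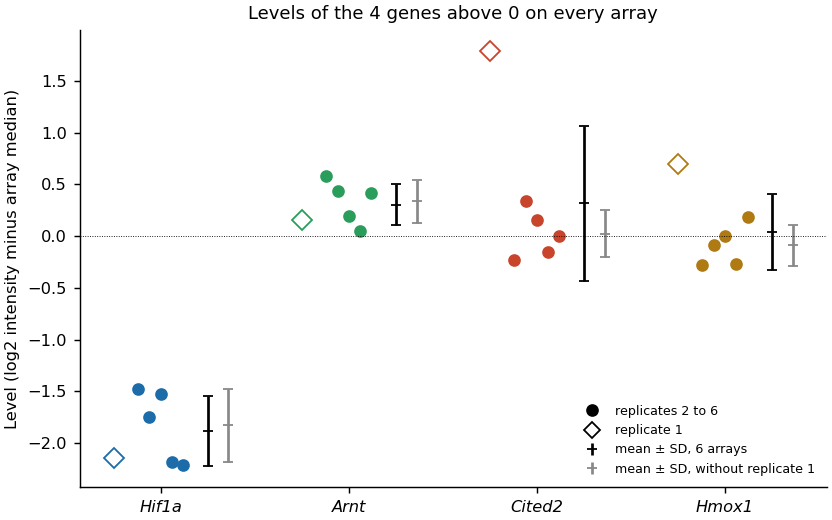
Level of each of the 4 transcripts above 0 on every array (vertical axis, log2 intensity minus array median), with replicate 1 as open diamonds, replicates 2 to 6 as dots, and mean ± SD over 6 arrays (black) and without replicate 1 (grey). The diamond lies above all dots for Cited2 (1.79) and Hmox1 (0.69) and within the range of the dots for Hif1a and Arnt.

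On replicate 1 the inhibitor and the target were high, and the 2 HIF subunits lay within the range of the other arrays. Relative to the mean of the other arrays, replicate 1 was higher by 1.77 for Cited2 and by 0.78 for Hmox1 on the log2 scale. Hif1a differed by -0.31 and Arnt by -0.18. The median of this difference over all 171 probes was 0.13, and Cited2 had the 7th highest difference, Hmox1 the 44th, Arnt the 105th and Hif1a the 121st. In level, replicate 1 was above all other arrays for 2 of the 4 transcripts, against 39.2% of the probes, and below all others for 0 of 4, against 28.1%. In deposited intensity it was the highest array for 3 of 4 (Arnt, Cited2 and Hmox1), against 57.9% of the probes, so being highest there is common on this array. With 1 array on one side, no p-value was computed for these differences. Dixon's ratio for the levels of Cited2 and Hmox1 is given only among the results flagged for a closer look.

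Scalings that move a whole array shift every difference by the same amount. The median difference of all probes was 0.65 without centring and -0.45 with arrays scaled to equal totals. Without centring Hif1a and Arnt were higher on replicate 1 by 0.21 and 0.34, and with equal totals they were lower, at -0.89 and -0.76. Cited2 kept a positive difference, from 1.19 to 2.29, and Hmox1 from 0.20 to 1.31, over the 8 other settings, but with equal totals Hmox1 was no longer highest on replicate 1. Relative to the median of all probes, Hif1a and Arnt were below it and Cited2 and Hmox1 above it in each setting that held them, which for scalings that shift a whole array follows from their construction.

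In multiples of the array median, the summed intensities of several cell type and fibre type markers were also different on replicate 1. Scaling to equal totals lowers replicate 1 relative to the other arrays. The sums were not computed under it. Both the size of each difference below and whether replicate 1 stays outside the range of the others depend on the scaling. Its total was 37.5 against 15.3 to 18.5. The fast muscle markers had a deposited sum of 2.47 against 0.87 to 1.22, and the connective tissue markers 0.0365 against 0.013 to 0.0218. Neither group need be highest on replicate 1 with equal totals. The slow muscle markers probed (Myh7 and Mb, 2 of 7 listed) summed to 310.03 on replicate 1 and 158 to 195 on the others. The fast muscle markers (Myh1, Myh2 and Myh4, 3 of 6 listed) summed to 215 against 124 to 143. The 1 fat marker of 5 on the array, Fabp4, had 7.30 against 3.24 to 4.71, and the 2 connective tissue markers of 5, Pdgfra and Fn1, summed to 3.17 against 1.73 to 2.60. The endothelial markers (6 of 9 probed, Nos3 above 0 on 4 arrays and the other 5 on all) summed to 6.18 on replicate 1, below the 8.76 to 10.96 of the others, whereas their deposited intensities summed to 0.0709 against 0.0698 to 0.0878. The 5 did not move alike. In level, replicate 1 differed from the mean of the others by -2.60 for Flt1, -0.63 for Pecam1, -0.57 for Cdh5, -0.12 for Kdr and 0.14 for Tek. The 2 immune markers of 9, Il1b and Il6, were each above 0 on 2 of 6 arrays. The part of these cell types in the values of Cited2 and Hmox1 on replicate 1 was not tested. In whole muscle, fewer cells of a type and less RNA per cell cannot be told apart.

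**Figure D3:**
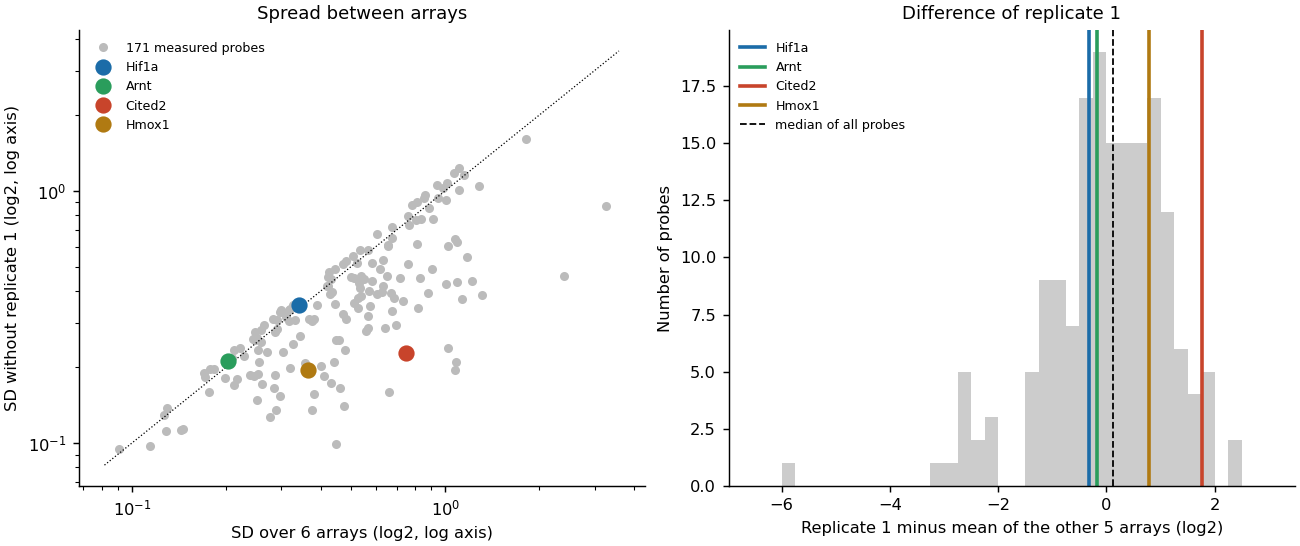
Left, SD over 6 arrays (horizontal) against SD without replicate 1 (vertical) for the 171 measured probes, both in log2 units on log axes, with equality as a dotted line; right, number of probes (vertical) by how far replicate 1 lay from the average of the rest in log2 units (horizontal), with the 4 genes and the median of all probes as lines. Cited2 drops from 0.75 to 0.23 when replicate 1 is left out and lies 1.77 to the right of 0, whereas Hif1a and Arnt lie on the line of equality.

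Covariation over the arrays was examined in the 6 pairs of the 4 transcripts, with Pearson's r, Spearman's rho and an exact two-sided permutation test over all 720 pairings of the arrays. P-values were adjusted by Benjamini-Hochberg over all 14535 pairs of measured probes. No member pair passed after adjustment, nor did any of the 14535 pairs by either coefficient. The smallest possible exact p with 6 arrays is 0.0014, so few pairs could pass an adjustment over this many, and the absence of a pass says little. Without adjustment 1 of the 6 pairs had an exact Pearson p below 0.05, where 11.7% of all probe pairs did, and 0 of 6 did by Spearman, where 5.88% of all pairs did.

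The pair below that threshold was Cited2 and Hmox1, the inhibitor and the target. Their r was 0.91 (exact permutation p = 0.040, adjusted 0.40) and rho 0.77 (exact p = 0.10, adjusted 0.65) over 6 arrays. Replicate 1 had the highest level of both. The next highest was replicate 3 for Cited2 and replicate 6 for Hmox1. Without replicate 1, r was 0.47 and rho 0.60 (exact p of r = 0.47, n = 5). Without replicates 1 and 2, the arrays farthest from the median of Cited2, r was 0.21 over 4 arrays, and without replicates 1 and 6, those farthest for Hmox1, it was 0.84. The unadjusted call was also lost without replicate 2 (r = 0.89, exact p = 0.092), replicate 4 (0.91, exact p = 0.058) or replicate 5 (0.90, exact p = 0.083), with equal totals (0.65, exact p = 0.17) and with arrays centred on the mean (0.92, exact p = 0.054). Over all 16 alternatives the exact p ran from 0.0069 to 0.47.

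The HIF subunits Hif1a and Arnt had r = 0.49 (exact permutation p = 0.26, adjusted 0.62) and rho = 0.54 (exact p = 0.30, adjusted 0.81). Replicate 2 was the highest array and replicate 5 among the lowest for both, and replicate 6 went against this, being the lowest for Hif1a and above the mean for Arnt. Without replicate 1 their r was 0.40, and without replicates 2 and 4, the arrays farthest from the median of Hif1a, 0.53 over 4 arrays. Without replicates 2 and 5, those farthest for Arnt, it turned to -0.14. With arrays scaled to equal totals r was 0.83 (exact p = 0.025, adjusted 0.35), and it was positive in the other scalings and filters and without any 1 array. The 4 remaining pairs, each of a subunit with Cited2 or Hmox1, had r between -0.46 (Hif1a and Hmox1) and -0.28 (Arnt and Hmox1), with exact permutation p between 0.37 and 0.72 and adjusted p between 0.70 and 0.89. Their rho lay between -0.49 and -0.14 (exact p 0.36 to 0.80, adjusted 0.83 to 0.96). Without replicate 1 the 4 values of r lay between -0.29 and 0.14. Leaving out the pair of arrays farthest from the median of the subunit gave r between -0.63 and -0.0019 over 4 arrays, whereas leaving out the pair farthest for Cited2 or Hmox1 gave 0.75, 0.65, 0.39 and -0.12, with 3 of the 4 signs turned. Without centring, all 4 were positive, between 0.34 and 0.71. Without replicate 1, 0 of the 6 pairs of transcripts had an exact p below 0.05, against 5.47% of all probe pairs.

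**Figure D4:**
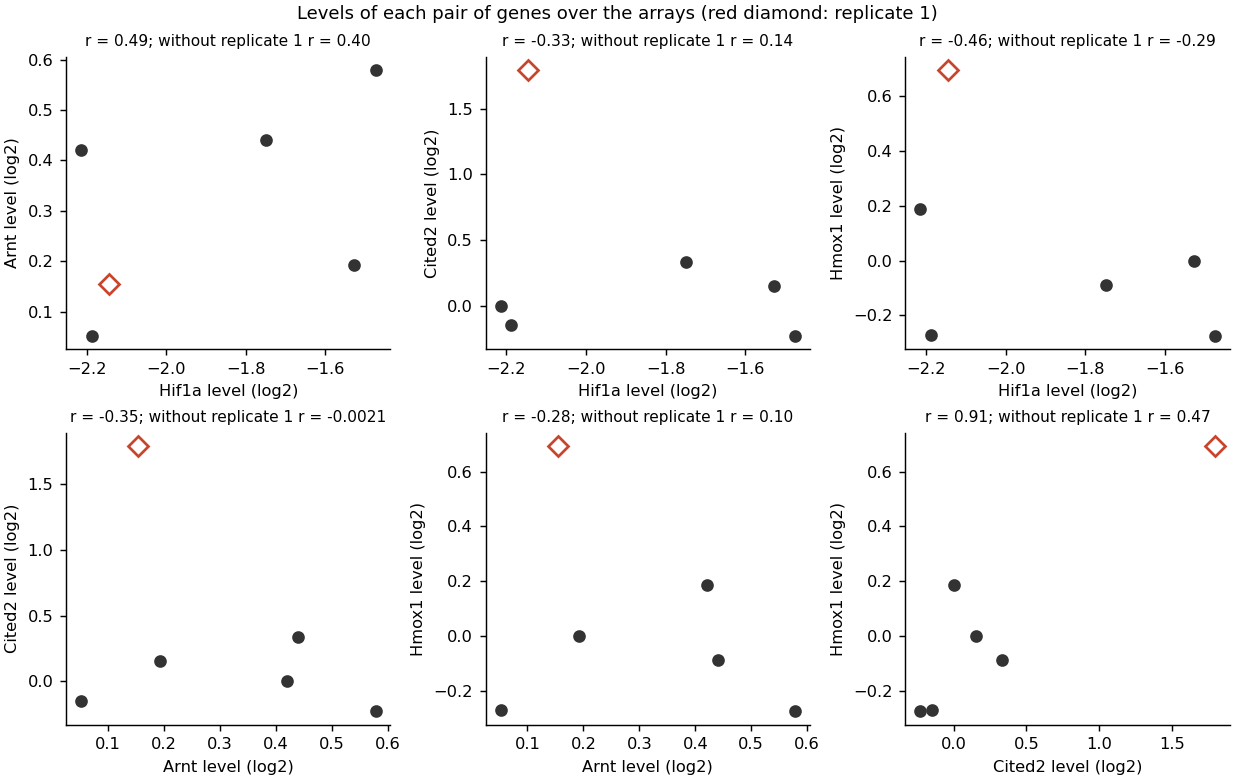
Level of one transcript against that of another (both axes log2 intensity minus array median) for the 6 pairs, with replicate 1 as a red diamond and the other 5 arrays as dots, and r with and without replicate 1 above each panel. In the panel of Cited2 and Hmox1 the diamond lies far from the dots, and r falls from 0.91 to 0.47 without it.

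The number of other probes that each transcript varied with ranged widely. At an unadjusted exact p below 0.05, Hif1a correlated with 2 and Arnt with 3 of the 170 other measured probes, or 1.18% and 1.76%. Cited2 correlated with 37 (21.8%), 16 positively and 21 negatively, and Hmox1 with 42 (24.7%), 26 positively and 16 negatively. Among all probe pairs the share was 11.7%, made up of 5.99% positive and 5.69% negative pairs. Without replicate 1 the counts were 10, 10, 8 and 9 for Hif1a, Arnt, Cited2 and Hmox1, or 5.88%, 5.88%, 4.71% and 5.29% against 5.47% of all pairs. Of the 37 and 42 calls of Cited2 and Hmox1, 4 and 5 were also made, with the same sign, without replicate 1. No call passed adjustment over all pairs, and the smallest adjusted p was 0.33.

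The probes most like each transcript are given as a description over 6 arrays. For Hif1a they were Pcx, the mitochondrial pyruvate carboxylase (r = 0.93, and 0.98 without replicate 1), the endothelial adhesion molecule Vcam1 (0.71, and 0.65) and the muscle transcription factor Mef2a (0.67, and 0.67). Pcx and Vcam1 fell to 0.40 and 0.25 of the noise yardstick on at least 1 array, so their levels lie partly within background. The most opposite were the angiopoietin receptor Tek (-0.87), the transcription factor Jun (-0.83) and the cytochrome oxidase subunit Cox6a2 (-0.80), at -0.88, -0.84 and -0.86 without replicate 1. Without replicate 1, hexokinase Hk1 (0.97) and Vegfb (0.95) followed Pcx, whereas with it they had 0.54 and -0.19. Hk1 fell to 0.80 of the noise yardstick on at least 1 array.

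For Arnt the most alike were lipoprotein lipase Lpl (0.80), Mef2a (0.79) and the calpain inhibitor Cast (0.72), with 0.78, 0.81 and 0.87 without replicate 1. The most opposite were the cell cycle genes Cdkn2d (-0.94) and Ccnd1 (-0.90) and the growth factor binding protein Igfbp3 (-0.80), which had -0.93, -0.96 and -0.93 without replicate 1. Ccnd1 and Igfbp3 fell below the noise yardstick on at least 1 array. Without replicate 1 the most alike were Ldha, a lactate dehydrogenase subunit (0.93), Acadm (0.90) and Pdgfra (0.89).

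Cited2 was most like the growth factor receptor Fgfr2 (r = 0.99, and 0.92 without replicate 1), the laminin chain Lamc1 (0.97, and 0.54) and Vegfb (0.96, and 0.23). The most opposite were the angiogenin Ang (-0.996, and -0.94 without replicate 1), the nitric oxide synthase Nos2 (-0.99, and -0.83) and the receptor subunit Csf2rb (-0.98, and -0.76). Nos2 and Csf2rb fell to 0.05 and 0.80 of the noise yardstick on at least 1 array. Without replicate 1, Fgfr2 remained the most alike and was followed by Htt (0.91) and Egfr (0.91).

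Hmox1 was most like the topoisomerase Top3b (0.97), the metalloproteinase inhibitor Timp1 (0.94) and the plasminogen activator Plat (0.93), with 0.86, 0.84 and 0.70 without replicate 1. Plat fell to 0.30 of the noise yardstick on at least 1 array. Most opposite were the growth factor Igf2 (-0.98), Cdk4 (-0.98) and Nos2 (-0.94), at -0.98, -0.91 and -0.88 without replicate 1. Cdk4 fell to the noise yardstick itself (a ratio of 1) on at least 1 array. On replicate 1 the intensity of Nos2 was 0.05 of the noise yardstick, so the size of its difference there is not measured. Without replicate 1 the urokinase Plau (0.95) and the glycolytic enzymes Pgk1 (0.93) and Aldoc (0.91) were the most alike. The most alike probe stayed in first place in 8 of 13 alternative settings for Hif1a (Pcx), 10 of 14 for Cited2 (Fgfr2), 6 of 14 for Hmox1 (Top3b) and 3 of 14 for Arnt (Lpl).

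The wider pathway was followed through 84 listed genes of oxygen sensing, HIF targets and haem stress, of which 29 were on the array and 27 above 0 on all arrays. The prolyl hydroxylases, the other alpha subunits and the coactivators of the list were not among the named probes, and the haem stress list had Hmox1 alone. Of 8 glycolytic targets all were measured, of 13 vascular and secreted targets 12 (Pgf was above 0 on 5 arrays), and of 4 other targets all. Among the glycolytic targets, Aldoa had a level of 8.10 ± 0.30, Gapdh of 7.31 ± 0.55 and Pgk1 of 2.16 ± 0.21 (SD, n = 6). Among vascular and secreted targets, Igf2 was at 2.59 ± 0.63, Angpt2 at 1.19 ± 0.45 and the VEGF receptor Flt1 at 0.02 ± 1.08 (0.46 ± 0.21 without replicate 1). Of the others, the cell cycle inhibitor Cdkn1a was at -0.71 ± 0.68, the transferrin receptor Tfrc at -0.995 ± 0.13 and Mmp2 at -1.51 ± 0.50. Without replicate 1 the SD fell to 0.42 for Igf2, 0.26 for Angpt2 and 0.33 for Cdkn1a, and it was 0.34 for Aldoa, 0.45 for Gapdh, 0.22 for Pgk1, 0.13 for Tfrc and 0.46 for Mmp2 (n = 5).

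Besides the 4 transcripts, 23 listed genes were measured. Hif1a correlated with 1 of 23 at an unadjusted exact p below 0.05 (Tek, negative) and Arnt with 1 (Igfbp3, negative), beside 1.18% and 1.76% of all other probes. Without replicate 1, Hif1a correlated with 1 (Hk1, positive) and Arnt with 2 (Ldha, positive, and Igfbp3, negative), beside 5.88% of all other probes for each. Both Hk1 and Igfbp3 fell below the noise yardstick on at least 1 array. The median r over the 23 was -0.01 for Hif1a and -0.06 for Arnt, against -0.13 and -0.06 over the 170 other probes, and -0.11 and -0.19 against -0.16 and -0.02 without replicate 1. Vegfa, the angiogenic growth factor induced by HIF, had r = 0.43 with Hif1a (exact permutation p = 0.42) and -0.45 with Arnt (exact p = 0.40), and 0.63 and -0.37 without replicate 1. Slc2a1, the glucose transporter that HIF induces, had -0.75 with Hif1a (exact p = 0.089) and -0.76 without replicate 1.

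Cited2 and Hmox1 correlated with 6 of the 23 each, 3 positively and 3 negatively, against 21.8% and 24.7% of all other probes. Both varied with Plaur and Cdkn1a positively and with Igf2, Flt1 and Nos2 negatively. Cited2 also correlated with Slc2a1 (r = 0.81, exact permutation p = 0.046) and Hmox1 with Gapdh (r = 0.89, exact p = 0.012). Without replicate 1, Cited2 correlated with 0 of 23 at an unadjusted exact p below 0.05, beside 4.71% of all other probes. Hmox1 then correlated with 4, positively with Pgk1 and Aldoc and negatively with Igf2 and Nos2, beside 5.29% of all other probes. On replicate 1 the median difference from the other arrays was 0.55 for the 8 glycolytic targets, -0.36 for the 12 vascular and secreted targets and 0.71 for the 3 others, beside 0.13 over all probes.

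**Figure D5:**
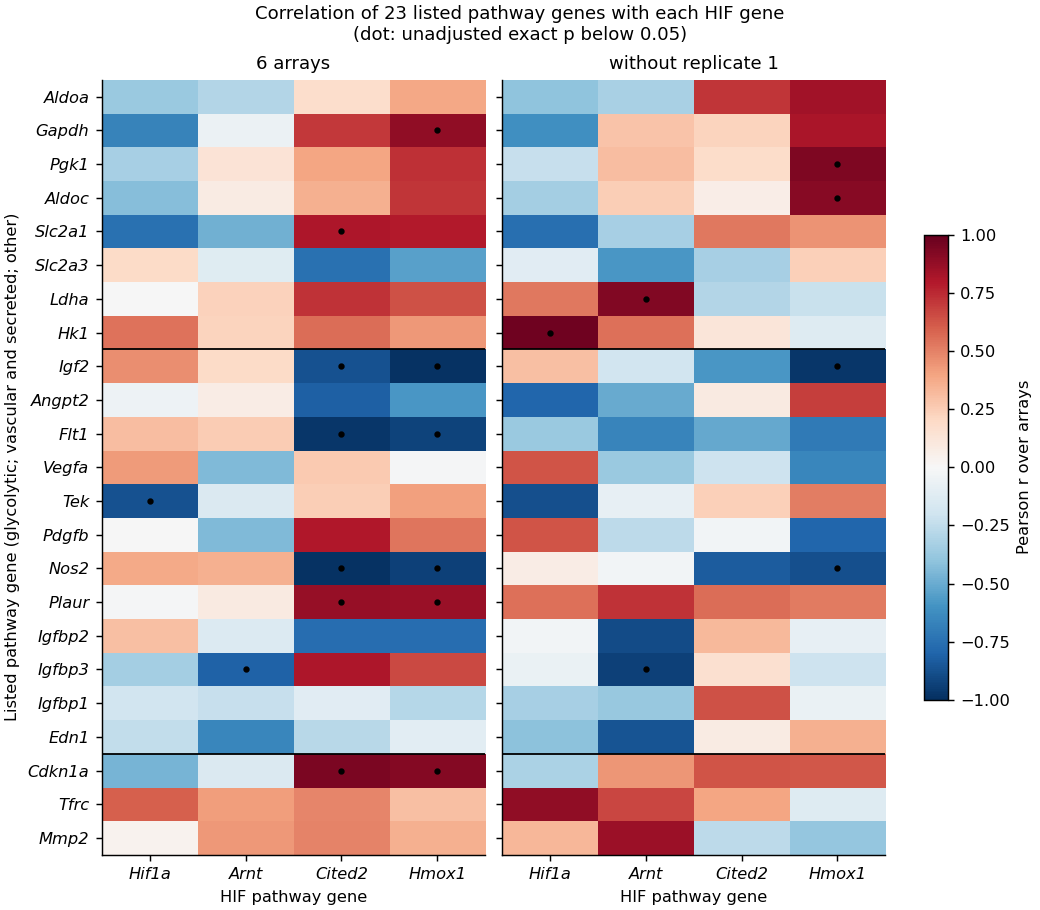
Pearson r over the arrays (colour, from -1 in blue to 1 in red) of the 23 listed pathway genes (rows, by role) with Hif1a, Arnt, Cited2 and Hmox1 (columns), over 6 arrays (left) and without replicate 1 (right); dots mark an unadjusted exact p below 0.05. The columns of Cited2 and Hmox1 hold 6 dots each at left, and 0 and 4 at right.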

How the data were processed

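The authors deposited 1 linear, background-subtracted intensity for each of 223 probes on each of 6 arrays; scanner, background method and scaling: not given in the sources used here. Probes were named through the platform annotation (205 with 1 symbol, 0 with several, 18 unnamed). The members and all gene lists were chosen with earlier results of these data known. Probes above 0 on all arrays (171) were log2-transformed with no pseudocount and centred on each array's median. Correlations were tested by exact permutation over all orders of the 6 arrays (smallest possible p = 0.0014), and the code was tested on simulated data. Named genes are the members, the 3 named probes of highest and of lowest r with each, the 3 of highest r without replicate 1, and the 3 listed genes of highest level per role. Genes called at an unadjusted p below 0.05, Vegfa and the markers of cell types were named besides, after their values were seen. Alternatives were no centring, equal totals, quantile normalization, a lowess curve (span 0.5) removed, mean centring, 2 stricter filters, no filter with a pseudocount of 0.002, the linear scale, Spearman's rho and leaving out each array. Python 3.11.15, numpy 2.4.6, pandas 2.3.3, statsmodels 0.14.6 and matplotlib 3.10.9 were used. The number of arrays limits the precision.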

Additional observations from a re-analysis of the deposited data

Results flagged for a closer look

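A result appears here when the highest or lowest of the 6 arrays lay farther from its neighbour, as a share of the whole range, than Dixon's critical ratio for 6 samples. Chance gives this in about 1 group in 20 where no array stands apart, and 5 of 20 quantities examined showed it, each on replicate 1. That array did stand apart, with the highest level for 39.2% of the 171 measured probes and the lowest for 28.1%. The share of all measured probes past the critical ratio was not computed. The count is therefore not a result about these genes. The level of Cited2 had a ratio of 0.721, with 1.79 on replicate 1 and -0.23 to 0.34 on the other arrays. Its deposited intensity had a ratio of 0.865, with 0.0398 on replicate 1. The deposited intensity of Hmox1 had a ratio of 0.710, with 0.0186 on replicate 1, and its level did not pass (0.523). The level of Flt1, a listed HIF target, had a ratio of 0.824, with -2.15 on replicate 1 and 0.30 to 0.82 on the others. The total deposited intensity had a ratio of 0.855. The quantities share the same array and are not independent of each other.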

How the results depend on the processing

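The 4 transcripts above 0 on every array stayed so in the 7 alternatives that bear on detection. The 1 unadjusted call among the 6 pairs was 0 with mean centring and with Spearman's rho, and between 0 and 1 when each array was left out. For Cited2 and Hmox1, r was 0.65 with equal totals, 0.92 with mean centring and 0.77 as rho, each no longer past the threshold, and 0.47 to 0.99 with 1 array left out. Hif1a and Arnt passed it with equal totals (r = 0.83). Signs turned without centring for Arnt and Cited2 (0.71), Arnt and Hmox1 (0.64), Hif1a and Cited2 (0.39) and Hif1a and Hmox1 (0.34). They turned with the pseudocount for Arnt and Cited2 (0.014) and Arnt and Hmox1 (0.029). With 1 array left out, r ran from -0.74 to 0.10 for Arnt and Hmox1, from -0.54 to 0.14 for Hif1a and Cited2, from -0.72 to -0.0021 for Arnt and Cited2, from -0.79 to -0.29 for Hif1a and Hmox1 and from 0.16 to 0.76 for Hif1a and Arnt. The cause of these changes was not tested. Hif1a lies below the 25th percentile of level and has no value under that filter. The signal of Hif1a was 1.30 to 6.80 times the noise yardstick. No paired analysis was possible because all arrays belong to 1 group.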
